A study of Bos taurus and Mus musculus with 16 samples.

Results

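The TEAD transcription factors and the cofactors that bind them were followed in preimplantation embryos of 2 species in which TEAD4 had been base-edited. The set was chosen by gene symbol and held 9 genes, namely Tead1, Tead2, Tead3, Tead4, Yap1, Wwtr1, Vgll1, Vgll3 and Vgll4. Of these, 8 were read in the mouse table of 16655 genes and the same 8 in the bovine table of 14852 genes, and Vgll1 was not analysed here. Edited embryos had received mRNA of BE3, a cytosine base editor built from a Cas9 nickase and a cytidine deaminase, as zygotes, together with a mix of single guide RNAs against Tead4 (mouse) or TEAD4 (cattle). Control embryos had received BE3 mRNA without guide RNAs, so every sample carried the editor, and what the guides did apart from removing TEAD4 function cannot be told apart from the loss itself. Edited and control mouse morulae were collected on day 3.25 (2 samples each), and edited and control bovine blastocysts on day 7.0 (6 samples each). The number of embryos in a sample, the strain or breed, the share of edited alleles and whether samples came from separate injections are unknown here. The p-values therefore reflect how far these samples scattered, and that scatter may be technical.

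TEAD proteins bind DNA through a shared TEA domain but need a cofactor to activate transcription. The co-activators YAP1 and TAZ (the product of Wwtr1) are held in the cytoplasm when the Hippo kinases phosphorylate them, and they enter the nucleus and bind TEAD proteins when the kinases are inactive. Vestigial-like (VGLL) proteins bind TEAD proteins too, and VGLL4 competes with YAP1 for them. In the mouse embryo, TEAD4 with nuclear YAP1 or TAZ turns on trophectoderm genes such as Cdx2 in outer cells, which found the placenta.

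The 4 Tead genes are paralogs, so their reads can be told apart only where their transcripts differ. The 60-base coding window in which mouse Tead4 was most like the other 3 is given below from the GENCODE M21 transcripts (GRCm38). Bases that differ from Tead4 are in capitals.
Tead4: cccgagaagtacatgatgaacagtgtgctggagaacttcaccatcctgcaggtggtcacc
Tead1: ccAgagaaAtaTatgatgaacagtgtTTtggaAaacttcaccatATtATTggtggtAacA
Tead2: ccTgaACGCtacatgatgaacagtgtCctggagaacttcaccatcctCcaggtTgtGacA
Tead3: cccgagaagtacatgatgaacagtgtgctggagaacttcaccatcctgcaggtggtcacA
In this window Tead1 matched Tead4 at 47 of 60 bases, Tead2 at 50 and Tead3 at 59. The longest identical run shared with the Tead4 transcript was 59 bases in Tead3, 23 in Tead2 and 17 in Tead1. How the authors treated reads with several matches is unknown here, so reads from the Tead3 and Tead4 run cannot be assigned with certainty. Elsewhere in the loci, Tead2 shares exon bases with Cd37 and Yap1 with Gm20416, both on the opposite strand, and with the strand setting not given their reads cannot be told apart there.

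The deposited values are gene-level reads divided by a size factor per sample, called normalized reads here. The edited and control mouse libraries held 4386305 to 6109425 and 3642907 to 4187826 reads assigned to genes, so the edited libraries were the deeper ones and depth cannot be told apart from editing in mouse. The edited and control bovine libraries held 817329 to 2259064 and 934078 to 2501592 reads. In mouse, 1742 of 11386 tested genes passed a Benjamini-Hochberg adjusted p of 0.05 (limma), 788 higher and 954 lower in edited morulae, or 1113 higher and 684 lower with every sample scaled to the same total, which put the median of all genes at 0.12 (log2). In bovine, 1 of 8884 tested genes passed with limma and 5 with DESeq2. The trophectoderm markers, 16 of 17 of which were in the mouse table, summed to 2936 to 3269 normalized reads in edited and 9142 to 10668 in control morulae, and 9 of the 15 tested fell. In bulk samples, fewer cells of a type and less RNA per cell cannot be told apart. The sum of 15 such markers was 9612 to 22943 in edited and 12250 to 23043 in control blastocysts. None of the 11 tested passed (limma, 2 with an unadjusted p under 0.05, where 5.88% of all tested bovine genes had one). Most of the sum was KRT8 (mean 10135 in edited, 9056 in control blastocysts) and KRT18 (mean 5090 in edited, 4791 in control blastocysts). Inner cell mass and epiblast markers were present in both species, and 5 of the 12 tested in mouse rose and 1, Dppa5a, fell. Their sum was 15007 to 15652 normalized reads in edited and 20392 to 23305 in control morulae. Most of it was Dppa5a, at a mean of 11189 in edited and 18579 in control morulae, so the sum does not describe the other markers. For cumulus and granulosa cells, which surround the oocyte, 2 of 10 markers were in the mouse table (summed 14.9 to 30.5 in edited, 8.85 to 14.5 in control) and 5 of 10 in the bovine one (11.0 to 35.2 in edited, 7.99 to 36.5 in control). For blood cells, 3 of 8 were in the mouse table (93.6 to 168 in edited, 65.8 to 79.3 in control) and 4 of 8 in the bovine one (7.07 to 31.6 in edited, 18.8 to 27.7 in control). In mouse 1 cumulus and 2 blood cell markers reached the filter and none passed (limma, 0 and 1 of them with an unadjusted p under 0.05), and in bovine none reached it. Every gene read had a total of at least 11 reads in mouse and 16 in bovine, so no marker read could be at 0 in all samples. The part of these 2 cell types in the results was not tested.

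The first comparison asked how the members responded to Tead4 editing in the mouse morula. Among 7 tested members, 3 fell in edited morulae, namely Tead4, Vgll3 and Vgll4, and 1 rose, namely Wwtr1. Vgll3 reached the filter on low values only through its control samples, at a mean of 1.66 normalized reads in edited and 25.5 in control samples. With no filter its limma adjusted p was 0.00367. Over all tested genes, 8.38% were called lower and 6.92% higher. Tead4, among the 3 members that fell, was the gene the guides were aimed at. Tead1, Tead2 and Yap1 did not pass, and Tead3 was too low to be tested. The median log2 fold change was -0.46 over the 7 tested members and -0.005 over all tested genes.

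Tead4 (chromosome 6, 128224288 to 128300823, minus strand, GRCm38), the gene the guides were aimed at, is given first as a check of the labels. Its level was 57.2 and 76.5 normalized reads in edited morulae, against 458 and 519 in control morulae. Both edited samples lay far below both controls, at 13.7% of the control mean. The log2 fold change was -2.86 ± 0.25 (SE, n = 2 per group; limma adjusted p = 5.37e-09). Leaving out 1 mouse library leaves a group of 1 sample, whose spread is then taken to be that of the other group, and in those 4 fits the Tead4 fold change lay between -3.07 and -2.66. A base editor changes bases within the gene and does not remove it, so the RNA that is left says nothing of how much working protein was made.

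The other TEAD genes did not pass. Tead1 (chromosome 7, 112679318 to 112906807, plus strand) stood at 127 and 162 normalized reads in edited, against 191 and 205 in control samples. The groups did not overlap, but a log2 fold change of -0.46 ± 0.25 (limma adjusted p = 0.225) left a 95% interval from -0.97 to 0.05. Tead2 (chromosome 7, 45215753 to 45233644, plus strand) stood at 40.0 and 32.6 in edited, against 27.9 and 27.8 in control samples. Its log2 fold change was 0.36 ± 0.43 (limma adjusted p = 0.625), with an interval from -0.53 to 1.25. Of the tested members, 4 were lower and 2 higher in edited samples with no overlap, where 29.2% and 28.6% of all tested genes were, so with 2 samples a group such a separation was common. Tead3 (chromosome 17, 28331671 to 28350817, minus strand) had 16 and 4 whole reads in edited and 3 and 1 in control samples. The edited sample with 16 reads stood apart from the other 3 libraries, and the ratio of edited to control reads, each pooled over the group and divided by its summed size factors, was 3.43 with a counting interval from 1.15 to 13.8 (95%, exact, counting error only).

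**Figure D1:**
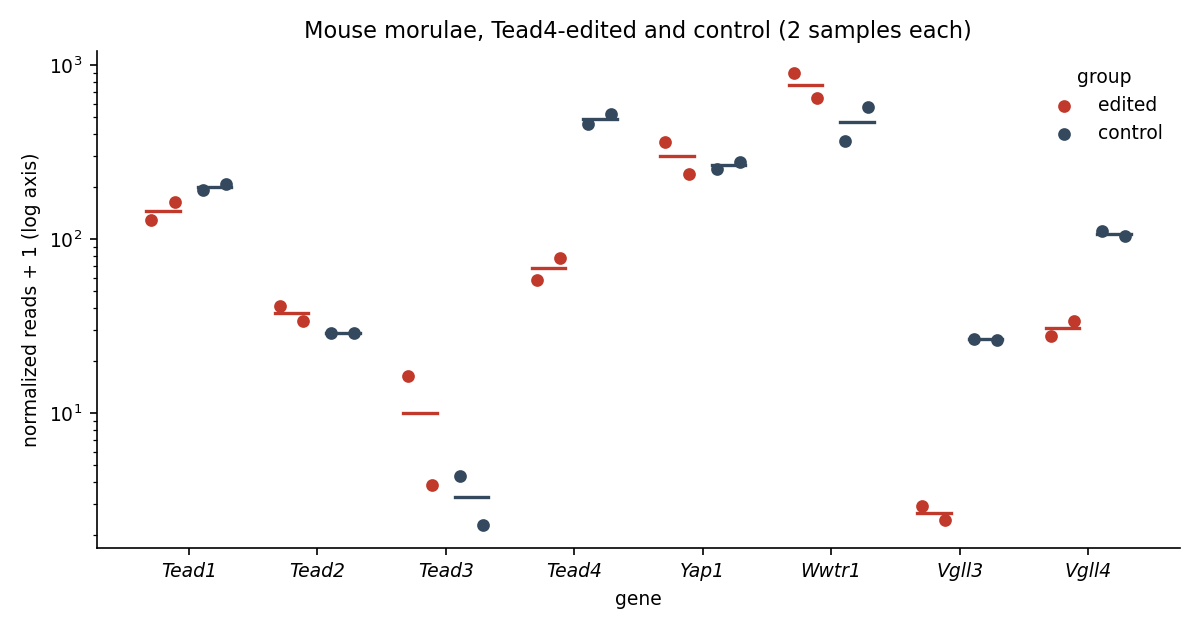
Normalized reads + 1 (log axis) of the 8 members read in mouse morulae, with a point per sample (edited red, control blue, 2 each) and a bar at each group's mean. Tead4, Vgll3 and Vgll4 lie lower in both edited samples, Wwtr1 lies higher in both, and the Tead3 points of the edited group are far apart.

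Of the co-activator genes, Wwtr1 rose and Yap1 did not pass. Wwtr1 (chromosome 3, 57455649 to 57575910, minus strand) stood at 894 and 641 normalized reads in edited, against 367 and 573 in control samples. The groups did not overlap, but the lower edited sample was close to the higher control. Its log2 fold change was 0.72 ± 0.22 (limma adjusted p = 0.0226), or 0.40 (adjusted p = 0.466) without control library 1 and 0.48 (adjusted p = 0.124) without edited library 1, so the call rests on those libraries. Yap1 (chromosome 9, 7931999 to 8004596, minus strand) stood at 360 and 235 in edited, against 253 and 274 in control samples. The edited samples lay on either side of the controls, with a log2 fold change of 0.14 ± 0.23 (limma adjusted p = 0.733) and an interval from -0.33 to 0.62.

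Both VGLL genes that were read fell in edited morulae. Vgll4 (chromosome 6, 114860628 to 114969994, minus strand), which encodes the cofactor that competes with YAP1, stood at 26.7 and 32.6 normalized reads in edited, against 111 and 102 in control samples. It was left at 27.8% of the control mean, with a log2 fold change of -1.82 ± 0.35 (limma adjusted p = 0.000772), or -1.96 to -1.68 with 1 library left out (adjusted p of at most 0.0395, with a lone sample assumed to vary like the other group). Vgll3 (chromosome 16, 65815257 to 65866368, plus strand), which encodes another TEAD-binding cofactor, had 2 whole reads in each edited library and 23 and 20 in the control libraries. The ratio of edited to control reads, pooled and scaled as for Tead3, was 0.0637, with a counting interval from 0.0166 to 0.175 (95%, exact, counting error only). Its log2 fold change of -3.32 ± 0.80 (limma adjusted p = 0.00563) depends on the added pseudocount at so few reads, and leaving out control library 1 (adjusted p = 0.114) or control library 2 (adjusted p = 0.113) ended the call, at nearly the same fold changes of -3.31 and -3.33 but with larger standard errors of 1.19 in both.

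To ask which TEAD paralog was most abundant, normalized reads were divided by the length of the longest annotated transcript. In control morulae Tead4 led the set with 149 and 169 normalized reads per kilobase, a level above that of 86.6% of 14843 genes with a known length. Wwtr1 followed at 78.0 and 122, then Yap1 at 47.8 and 52.0 and Vgll4 at 50.3 and 46.6. The levels per kilobase of Yap1 and Vgll4 overlapped, while each other neighbouring pair in this order was apart in the 2 control samples. Tead1 stood at 19.2 and 20.6 per kilobase, Tead2 at 8.23 and 8.19, Vgll3 at 3.67 and 3.61, and Tead3 at 0.974 and 0.367. By coding length, Tead4 stood at 358 and 405 per kilobase and Wwtr1 at 270.3 and 423, so that this pair overlapped.

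In edited morulae this order differed. Wwtr1 led with 190.4 and 137 normalized reads per kilobase, followed by Yap1 with 68.2 and 44.4. Tead4 stood at 18.6 and 24.9 per kilobase in edited samples, with Tead1 at 12.7 and 16.3 and Vgll4 at 12.1 and 14.8. By coding length the order of this pair of Tead genes turned in edited samples, with Tead4 at 44.7 and 59.8 per kilobase and Tead1 at 96.9 and 124. Summed over the 4 Tead genes, the level was 47.5 and 51.6 per kilobase in edited, against 177 and 198 in control samples. Tead4 supplied 39.1% and 48.2% of that sum in edited and 84.0% and 85.3% in control samples. The share of Tead1 averaged 29.2% in edited and 10.6% in control samples, while its own reads were, as given above, not higher in the edited samples. These shares depend on the length used. By coding length Tead4 supplied 26.4% in edited and 68.6% in control samples and Tead1 56.1% in edited and 27.3% in control samples, and with no length correction Tead4 supplied 25.9% in edited and 68.1% in control samples and Tead1 56.1% in edited and 27.7% in control samples. The Tead gene with the highest share in edited morulae was thus Tead4 by transcript length and Tead1 by the other 2 measures, while in control morulae it was Tead4 by all 3.

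**Figure D2:**
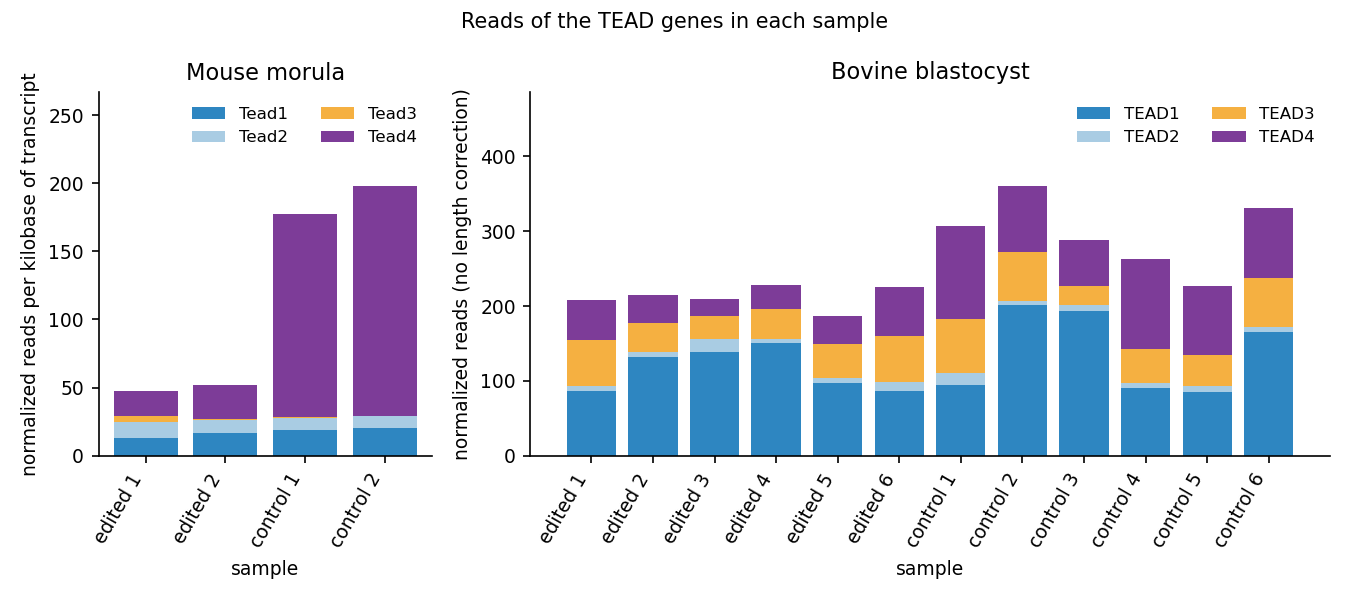
Stacked levels of the 4 TEAD genes in each sample, edited samples left of control samples, as normalized reads per kilobase of transcript in mouse and as normalized reads without length correction in bovine. The mouse sum is 47.5 and 51.6 in edited and 177 and 198 in control samples, and the bovine sum is 186 to 228 in edited and 227 to 360.1 in control samples.

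In bovine blastocysts TEAD4 was lower in edited samples by the measured level, but it did not pass with limma, and no other tested member did. TEAD4 ranged from 22.6 to 65.6 normalized reads in the 6 edited samples (median 37.5), against 61.2 to 125 in the 6 control samples (median 92.9). The groups touched in 1 edited sample, with 5 of 6 edited samples below all controls, and the edited mean was 42.6% of the control mean. The log2 fold change was -1.25 ± 0.25 (SE, n = 6 per group) with an interval from -1.77 to -0.74. Its unadjusted limma p was 6.58e-05, its limma adjusted p 0.235, and an exact two-sided permutation test of this gene alone gave p = 0.00433, where the smallest possible is 0.00216. DESeq2 on the whole reads called it (adjusted p = 0.0066), as did the authors' deposited table (adjusted p = 0.0142), while edgeR did not (adjusted p = 0.26). Over all alternatives its adjusted p lay between 0.0066 and 0.773. Over all genes 0.0113% were called by limma and 0.0563% by DESeq2.

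The other bovine TEAD genes had overlapping groups. In all, 0 of 5 tested members had groups without overlap, where 0.158% of all tested genes were lower and 0.09% higher in edited samples without overlap. TEAD1 ranged from 86.3 to 150.5 normalized reads in edited (median 115) and from 85.0 to 202 in control samples (median 129.7), with a log2 fold change of -0.20 ± 0.25 (limma adjusted p = 0.883, interval -0.72 to 0.31). TEAD3 ranged from 31.1 to 62.2 in edited (median 42.9) and from 26.2 to 72.3 in control samples (median 55.4), with a log2 fold change of -0.14 ± 0.26 (limma adjusted p = 0.923, interval -0.67 to 0.40). TEAD2 was below the filter on low values, at 5.02 to 17.0 normalized reads in edited and 4.62 to 15.8 in control samples. The intervals of TEAD1 and TEAD3 leave room for a change of either sign.

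**Figure D3:**
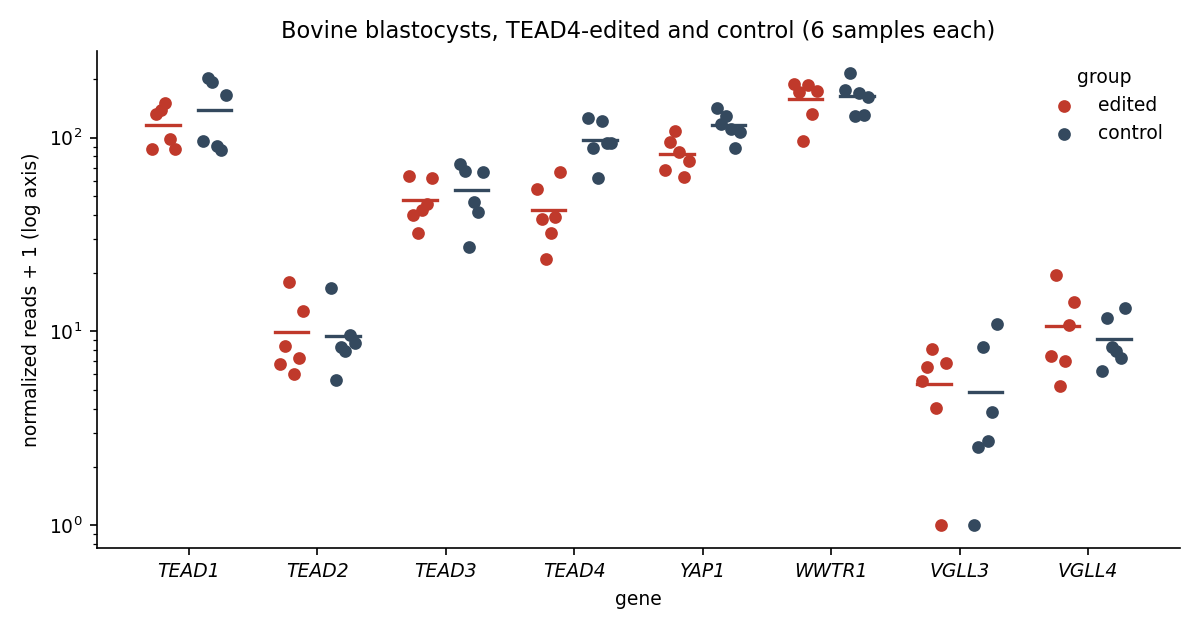
Normalized reads + 1 (log axis) of the 8 members read in bovine blastocysts, with a point per sample (edited red, control blue, 6 each) and a bar at each group's mean. TEAD4 has 5 of 6 edited points below all control points, while TEAD1, TEAD2, TEAD3, WWTR1, VGLL3 and VGLL4 overlap widely.

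Neither co-activator gene passed in the blastocyst. YAP1 ranged from 61.4 to 108 normalized reads in edited (median 78.9) and from 87.9 to 142 in control samples (median 114), with 4 of 6 edited samples below all controls. Its log2 fold change was -0.51 ± 0.19, with an interval from -0.90 to -0.12, an unadjusted limma p of 0.0133 and an adjusted p of 0.792, so it did not pass. With TEAD4 it made 2 of 5 tested members with an unadjusted p under 0.05 (limma), where 5.88% of all tested genes had one. TEAD4 was the gene the guides were aimed at, and among the other tested members YAP1 alone had such a p. WWTR1 ranged from 94.8 to 189 in edited (median 172) and from 128 to 214 in control samples (median 164), with a log2 fold change of -0.06 ± 0.20 (limma adjusted p = 0.957, interval -0.48 to 0.35). Its sign turned to 0.06 with every sample scaled to the same total, which moved the median of all tested bovine genes from 0.01 to 0.13.

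Bovine VGLL genes were hardly read. VGLL4 ranged from 4.24 to 18.5 normalized reads in edited and from 5.26 to 12.2 in control samples, and VGLL3 from 0 to 7.07 in edited and from 0 to 9.95 in control samples. Summed over the libraries, VGLL4 had 64 whole reads in edited and 50 in control samples, and VGLL3 had 26 in edited and 23 in control samples. Both were below the filter on low values, and with no filter neither passed (limma adjusted p = 0.973 for VGLL4 and 0.968 for VGLL3). The ratio of edited to control VGLL3 reads, scaled as above, was 1.06 with a counting interval from 0.584 to 1.95, and whether the species differ in them was not tested.

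Transcript lengths of the bovine genes were not used here, so their order is given in reads and not per length. In control blastocysts WWTR1 averaged 163 ± 31.8 normalized reads, TEAD1 138 ± 54.5, YAP1 115 ± 18.7, TEAD4 96.7 ± 23.4 and TEAD3 52.7 ± 18.0 (SD, n = 6). Ranges of neighbours in this order overlapped, and the next gene, TEAD2 at 8.49 ± 3.81, was apart from TEAD3. Of the reads of the 4 TEAD genes, TEAD4 took 19.5% ± 7.01 in edited and 33.5% ± 10.2 in control samples (SD, n = 6), and TEAD1 took 54.3% ± 12.2 in edited and 45.9% ± 14.2 in control samples. With mouse transcript lengths as a stand-in, an alternative chosen after seeing the data, the share of TEAD4 was 31.8% in edited and 49.7% in control samples and that of TEAD1 29.2% in edited and 22.7% in control samples, so that TEAD4 and not TEAD1 had the highest mean share in control samples. On that scale TEAD4 took 49.7% in control blastocysts and Tead4 84.6% in control morulae, where species, stage and day differ together and cannot be told apart.

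Bovine libraries differed in depth, and levels of some members moved with it, so the values were set out within the 6 shallower (817329 to 1304737 reads) and the 6 deeper libraries (1563117 to 2501592 reads), with 3 edited and 3 control samples in each. This division was chosen after seeing the data. In the shallower libraries TEAD4 ranged from 22.6 to 37.1 normalized reads in edited and from 61.2 to 125 in control samples, and in the deeper ones from 37.9 to 65.6 in edited and from 92.9 to 121 in control samples. The groups did not overlap in either set, with edited means at 0.332 and 0.511 of the control means. YAP1 was arranged likewise, at 83.3 to 108 in edited and 117 to 142 in control samples of the shallower set, and at 61.4 to 74.5 in edited and 87.9 to 110 in control samples of the deeper set. TEAD4, the gene the guides were aimed at, and YAP1 were lower in edited samples with no overlap in both sets. These were 2 of the 5 tested members, beside 0.54% of all tested genes. As the division was chosen after seeing the data, this is a description, and over all bovine libraries together both genes had groups that overlapped. TEAD1 stood at 132 to 150.5 in edited and 94.6 to 202 in control samples of the shallower set, and at 86.3 to 97.6 in edited and 85.0 to 165 in control samples of the deeper set. With the depth set as a term in the fit, TEAD4 had a limma adjusted p of 0.122 and YAP1 one of 0.702, so neither passed.

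**Figure D4:**
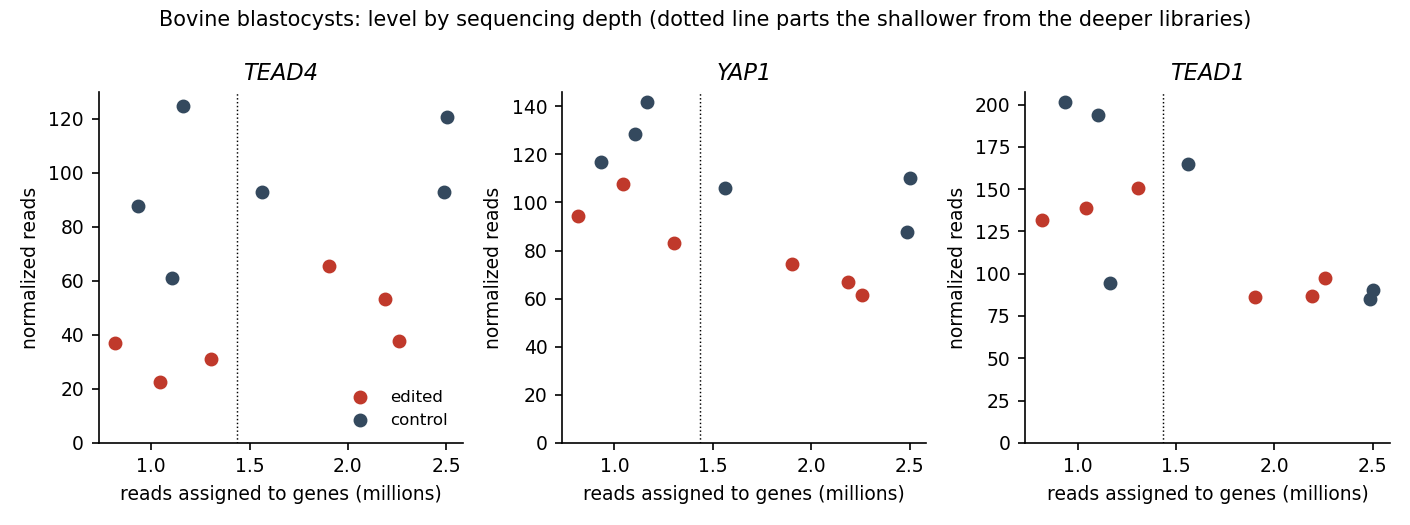
Normalized reads of TEAD4, YAP1 and TEAD1 against reads assigned to genes (Mreads) in the 12 bovine samples (edited red, control blue), with a dotted line between the 6 shallower and the 6 deeper libraries. On each side of the line the edited points of TEAD4 and YAP1 lie below the control points, and those of TEAD1 do not.

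The responses of 4 members could be compared between the species, as the difference of both log2 fold changes adjusted over 7073 genes tested in both. Tead4 differed, by -1.61 ± 0.35 (SE; adjusted p = 0.00355), with the larger fall in mouse, while 6.07% of the genes differed. Without mouse control library 2 the adjusted p was 0.0616. Wwtr1 differed by 0.79 ± 0.29 (adjusted p = 0.0973), Yap1 by 0.65 ± 0.30 (adjusted p = 0.187) and Tead1 by -0.26 ± 0.35 (adjusted p = 0.718), and none of these passed. Without mouse edited library 2, 3 members passed, Wwtr1 among them (adjusted p = 0.0104).

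**Figure D5:**
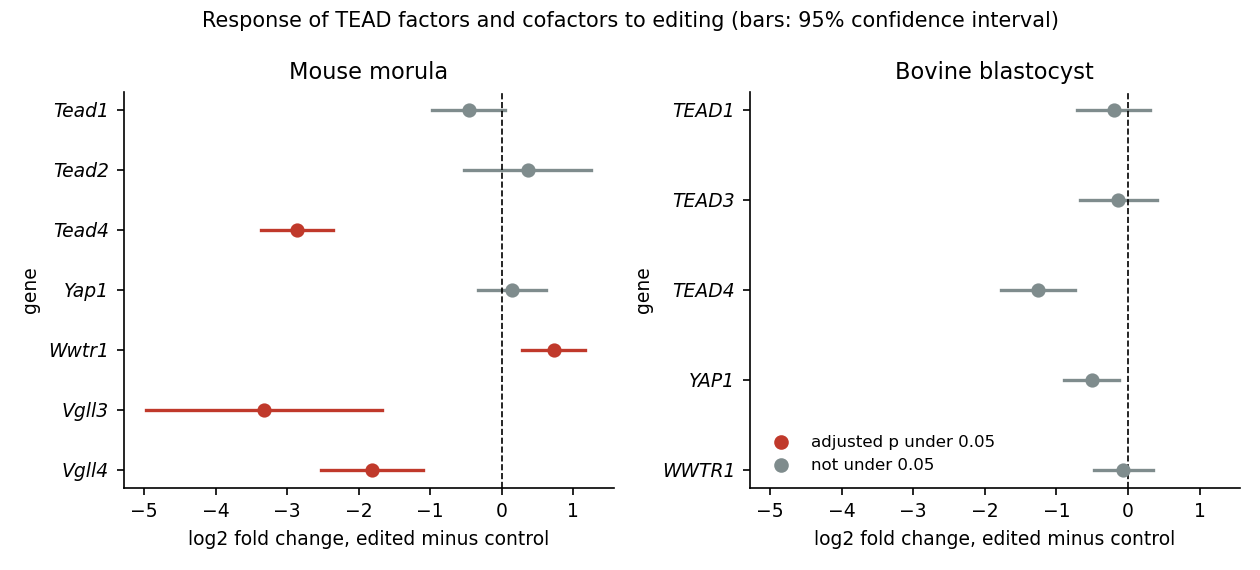
Log2 fold change (edited minus control) of the tested members in mouse morulae and bovine blastocysts, with the 95% confidence interval of limma as a bar and red for an adjusted p under 0.05. Tead4, Vgll3 and Vgll4 are red and below 0 and Wwtr1 red and above 0 in mouse, while no bovine member is red and the intervals of TEAD4 and YAP1 lie below 0.

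The genes around the TEAD factors were described from lists that were put together with earlier results of these data known. Of 22 Hippo kinases, scaffolds and upstream regulators tested in mouse, 4 fell and 1 rose, where 8.38% of all tested genes fell and 6.92% rose, and the median was -0.09 against -0.005 over all genes. Amotl2, an angiomotin family scaffold, averaged 9.86 normalized reads in edited and 269.6 in control samples (log2 fold change -4.70 ± 0.39). Like Vgll3, it reached the filter on low values only through its control samples. The LIM protein gene Ajuba averaged 35.0 in edited and 112 in control samples (-1.69 ± 0.35). Its fold change ran from -2.05 to -1.33 with 1 library left out, and its call was lost without control library 2. The kinase gene Lats2 averaged 47.8 in edited and 137 in control samples (-1.47 ± 0.31, lost without control library 2 at 0.121). Amot averaged 119 in edited and 207 in control samples (-0.79 ± 0.25), a call lost without either control library. Mob1a, which encodes an activator of the LATS kinases, was the one that rose (0.75 ± 0.26), a call lost in 3 of 4 fits that left out 1 library.

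Of 24 listed genes that YAP and TEAD proteins activate in cultured cells, 22 were in the mouse table and 9 reached the filter, the rest being too low to be tested. Among these 9, 5 fell and 0 rose in edited morulae (limma), beside the same 8.38% and 6.92% of all tested genes. The median was -0.81 against -0.005 over all genes. Those that fell were Amotl2 and Lats2, which stand in both lists, Cyr61 (-1.63 ± 0.33), Ctgf (-1.17 ± 0.36) and the survivin gene Birc5 (-0.81 ± 0.18). The others of the 9 had log2 fold changes from -0.21 to 0.92 and did not pass. The calls of Ctgf and Birc5 were lost when either control library was left out, and that of Ctgf also without edited library 1. None of 12 genes for retention and turnover of YAP1, such as those of 14-3-3 proteins, passed in mouse (limma, 3 with an unadjusted p under 0.05), nor did any of 3 other TEAD-binding coregulators (2 with an unadjusted p under 0.05), where 28.6% of all tested mouse genes had such a p. In bovine, none of the 18 tested Hippo genes passed (limma, 3 with an unadjusted p under 0.05, median -0.30, against 0.01 over all genes). Of the target genes, 20 were in the bovine table, and none of the 12 tested passed (limma, 2 with an unadjusted p under 0.05, median -0.33). None passed among the 11 tested genes of YAP1 retention and turnover (1 with an unadjusted p under 0.05) or the 3 other coregulators (1 with an unadjusted p under 0.05). Over all tested bovine genes, limma called 0.0113%, and 5.88% had an unadjusted limma p under 0.05. Of the 15 tested trophectoderm markers in mouse, 9 fell and 0 rose, where 8.38% and 6.92% of all tested genes did. Cdx2 was 1 that fell, at a mean of 12.8 normalized reads in edited and 56.5 in control samples (-2.06 ± 0.46). Its call was lost when either control library was left out. Aqp3 (0.55 ± 0.22), Eomes (0.46 ± 0.38) and Tfap2c (0.18 ± 0.20) had log2 fold changes above 0 and did not pass. The part of cell composition in these counts was not tested.

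The genes whose levels were most like those of a TEAD gene were sought in bovine over the 12 samples, after the mean of each group was taken out, among 2340 genes that averaged at least 100 normalized reads. For TEAD4 these were MFSD5 (Pearson's r = 0.93, Spearman's rho = 0.88), NDUFAF3 (r = 0.92, rho = 0.88) and COX14 (r = 0.90, rho = 0.84). For TEAD1, the other TEAD gene with the most reads, they were RPL39 (r = 0.96, rho = 0.94), RPS4X (r = 0.92, rho = 0.85) and ZMYND8 (r = 0.90, rho = 0.86). These are the highest of many values over few samples that share libraries and depth, and are given as a description.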

How the data were processed

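Libraries were made from oligo(dT)-primed polyadenylated RNA with a Smart-seq2 procedure, per the labels' protocols. Trimmomatic, HISAT2, featureCounts and DESeq2 (no versions) and the builds mm10 and ARS-UCD1.2 are named in the submitters' processing notes. Each species has 1 table, whose deposited signal values are gene-level reads over a size factor of DESeq2 for each sample, per the file headers. All values (100%) were whole multiples of the value of 1 read at a tolerance of 0.05 reads, so whole reads were recovered, and 3 reads are 2.13 to 3.79 normalized reads in mouse and 1.71 to 5.56 in bovine samples. The deposited log2 fold changes, score (test statistic) and p-values of the authors were not tested further, and only 1 adjusted p is quoted.

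Genes that averaged at least 10 normalized reads were tested with limma 3.58.1 under R 4.3.3, on the log2 scale after adding 1 (edited minus control, with trend, two-sided), Benjamini-Hochberg adjusted over all tested genes of a species, at a threshold of 0.05. This scale understates changes of low genes. edgeR 4.0.16 and DESeq2 1.42.0 were run on the recovered reads as alternatives. The species difference was tested on the root of the sum of both squared limma errors, with degrees of freedom after Satterthwaite. The fits were also run on simulated reads with the same dispersion for every gene, and no result here rests on that run. Intervals of fold changes are 95% limma intervals. Mouse loci and lengths come from GENCODE M21 (GRCm38), which matched 89.1% of the mouse names. Named genes were all members, up to 4 passing genes with the largest change per list (marker lists are given as counts), and the 3 genes most like TEAD4 and TEAD1. Mob1a, Birc5, Cdx2, Aqp3, Eomes, Tfap2c, Dppa5a, KRT8 and KRT18 were named outside this rule after their values were seen. The members and lists were chosen with earlier results of these data known.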

Additional observations from a re-analysis of the deposited data

Results flagged for a closer look

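The fall of Tead4 differed between the species, with a difference of log2 fold changes (mouse minus bovine) of -1.61 (adjusted p = 0.00355), the fold changes being -2.86 in mouse and -1.25 in bovine. Species, stage, day, depth and guide mix differ together and cannot be told apart, and the share of edited alleles is unknown here. Among 16 bovine groups of 6 samples, 1 held a sample far from the others, namely TEAD2 in control blastocysts, where control sample 1 had 15.8 normalized reads against 4.62 to 8.56 in the other 5. By the 95% critical value of the Dixon test used, chance alone sets a sample apart in about 1 in 20 such groups.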

How the results depend on the processing

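Of 186 log2 fold changes of members under other settings, 177 kept their sign and their side of the threshold, 4 lost the call (Vgll3 and Wwtr1 in mouse), 1 gained it (bovine TEAD4 with DESeq2) and 4 changed sign without passing. The sign changes were in mouse Yap1, which ran from -0.166 to 0.452 over the fits with 1 library left out (-0.166 without edited library 1), and in bovine WWTR1, which ran from -0.129 to 0.0731 (above 0 on leaving out control library 2, at 0.0180, or edited library 3, at 0.0731) and was 0.0570 with equal totals. With 1 library left out, 533 to 2573 mouse genes were called (535 when control library 1 was left out, 533 for control library 2), with 0 to 1 member higher and 2 to 3 lower. In bovine 1 gene and 0 members were called in every such fit, while DESeq2 called 5 genes and 1 member. The species difference was called for 109 to 891 genes and 0 to 3 members. The share of Tead4 in control samples was 84.0% to 85.3% in mouse with 1 library left out, 68.6% by coding length and 68.1% with no length, and in bovine 31.0% to 36.0%, or 49.7% with mouse lengths. The cause of these changes was not tested.

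The labels do not say whether same-numbered samples are paired. Their deviations correlated at 0.11 in mouse and at -0.19 to 0.34 in bovine, where 1 of 6 edited samples was closest to its own number. Both were in mouse, but with 2 samples a group the deviations mirror each other, so both match or neither does. A fit with the replicate number as a block called 1816 mouse genes, 1 bovine gene and 479 species differences, and changed no call of a member.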
